A study of Mus musculus with 43 samples.

Results

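Genes of glycosylphosphatidylinositol (GPI) anchor synthesis were followed across all organs of an in vivo CRISPR screen in CD8+ T cells. Members are the rows whose gene symbol is Pig followed by 1 letter, starts with Pgap or equals Gpaa1. This rule found 22 genes with 5 sgRNAs each, 110 of the 10640 sgRNAs in the table, and it used no measured value. In the screen, OT-I CD8+ T cells, which recognise ovalbumin, carried a Cas9 knock-in and received a lentiviral library against 2078 metabolic genes with 250 nontargeting sgRNAs. The vector also encodes CD90.1, and transduced cells were selected by it, sampled as T0 on the day of transfer, and given to Rosa26-Cas9 mice with orthotopic tumours of the pancreatic cancer line KPC_OVA. Treatment with anti-PD-1, or with IgG as its control, began that same day. After 7 days, CD90.1+ OT-I cells were sorted from primary tumour, lung, liver, peritoneal metastases, spleen, draining lymph nodes and nondraining lymph nodes, and the integrated sgRNAs were sequenced.

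A GPI anchor is a glycolipid that is built on phosphatidylinositol in the endoplasmic reticulum membrane and holds many cell surface proteins. N-acetylglucosamine is added and deacetylated, the inositol is acylated, mannoses and ethanolamine phosphates follow, and a transamidase complex then joins the finished anchor to the protein. CD90.1 is the Thy1.1 form of Thy1, a GPI-anchored protein of mouse T cells, so cells that lose the anchor can also lose the marker by which they were selected before transfer and sorted after it. Because T0 was taken after the first selection and no unselected cells were sequenced, loss of the marker and changes in growth, survival or migration cannot be told apart in these values.

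The sgRNAs of the screen are given by numbers such as s_06960, and their sequences were not used here. To place 3 of the members named in the results on the genome, 1 designed guide for each is shown. These guides come from the separate set that the study later made for single-cell sequencing, and they are not the measured sgRNAs. The study aimed that set at genes that both of its algorithms found enriched in this screen, in at least 1 organ and treatment. Its methods and thresholds differ from those used here, and its calls were not compared with those below. Lower case marks the protospacer, and capitals mark the PAM read from the mouse genome (GRCm38), where each protospacer with an NGG PAM had 1 exact match.
Pigf: taggaccaaacctcaaagcaTGG
Pigp: tgcagtactttatcttgtgtGGG
Pigx: ctgtgcactatcgctatcacCGG
The Pigf protospacer lies at chr17:87020427-87020446 on the minus strand, in coding sequence of exon 4. The Pigp protospacer lies at chr16:94367619-94367638 on the minus strand, in coding sequence of exon 3. For Pigx it is chr16:32087367-32087386 on the minus strand, in coding sequence of exon 4. Exons are counted in the principal GENCODE M21 transcript, and all 3 genes are transcribed from the minus strand.

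The table holds 41 libraries of 43 samples, because the authors removed 2 after quality control. T0 and all other groups have 3 libraries, apart from liver IgG and peritoneal metastases IgG with 2 each and liver anti-PD-1 with 1. Peritoneal metastases anti-PD-1 replicate 2 carries spleen as its tissue label but is titled as metastases, and was used by its title. Values are a normalised, batch-corrected signal per sgRNA with no read depth behind it, and no counting interval can be given. The summed signal was 2882462 to 4228882 in T0 and 1788300 to 3590597 in the 26 libraries outside the lymph nodes. In those 26 libraries, 2.83% to 42.7% of the targeting sgRNAs were undetected, that is, at a lowest value of that sgRNA that at least 2 libraries of one replicate number share. In the 12 lymph node libraries the range was 45.4% to 91.5%, and these were fitted apart. Changes below are on the log2(signal + 1) scale, averaged over the 5 sgRNAs of a gene, relative to the mean of the nontargeting sgRNAs in the same library and to the mean of the T0 libraries. A call is an adjusted p of at most 0.05 by limma with Benjamini-Hochberg adjustment over all 2078 genes.

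Cells at T0 already carried the member sgRNAs at a level near or above that of the rest of the library. Mean log2 signal was 8.36 over the 110 member sgRNAs, 8.22 over all 10390 targeting sgRNAs and 8.0 over the nontargeting sgRNAs. Of the 22 genes, 17 lay above the median gene at T0. Pign, which adds ethanolamine phosphate to the first mannose, was the lowest at 7.62, with only 3.13% of all genes lower. Pigh, a subunit of the enzyme that starts the anchor, was the highest at 8.82, with 96.8% lower. Levels at T0 also hold the make-up of the plasmid pool, which was not analysed here.

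Over the 10 groups outside the lymph nodes, weighted equally, the transamidase subunits lay on the lower side of the members and most others on the higher side. The 5 subunits of the GPI transamidase lay below T0, at -1.30 to -0.63, and 15 of the other 17 members lay above it, at up to 1.03 for Pigv, although with values as deposited only Pigv stayed above it. None passed the threshold in either direction, where 16.1% of all genes were called lower and 0.192% higher. At an unadjusted p under 0.05 by limma, Pigt, Gpaa1 and Pigu were lower, a bound that 18.2% of all genes met. At the same bound Pigv, Piga, Pigc and Pigf were higher, and these are 4 of the 12 genes (0.577% of 2078) that met it. The median change was 0.40 over the members and -0.14 over all genes, and 16 of 22 members lay above the median gene. This count was 15 to 17 over the main setting and 8 alternatives for scaling, summary, filter and fit. The alternatives for centring, and the fit of all libraries together, cannot move it. The sign of a change above T0 does rest on the scaling, since centring on the nontargeting median moved the median of all genes to -0.55, and taking the values as deposited moved it to -1.14. A scaling shifts every gene of a library alike, so ranks (1 for the lowest of 2078 genes) and differences between members do not move with it, and ranks are given beside the changes.

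The transamidase cleaves the signal peptide of the target protein and transfers the anchor to it. Its 5 subunits took ranks 349 to 479. The median change of the 20 ribosomal protein genes was -5.35. The 19 of them that were called lower all ranked below the subunits, and Rps3a3, at -0.66 and rank 461, lay among the subunits. In primary tumour, where no member sgRNA was undetected in any of the 6 libraries, 4 of the 5 subunits, all but Pigu, had all 6 values below every T0 library, as did 21.2% of all genes.

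Pigt, a noncatalytic subunit that holds the complex together, had the lowest change of all members. In T0 its 3 values were -0.23, 0.05 and 0.18 around their mean. In primary tumour they were -1.49, -1.41 and -1.70 under IgG and -1.28, -0.89 and -2.73 under anti-PD-1. All 6 tumour values were below T0. In lung they were -2.05, 1.56 and -1.35 under IgG and -0.20, -2.79 and -0.99 under anti-PD-1, and in liver -1.19 and -2.78 under IgG and -1.35 in the single anti-PD-1 library. Peritoneal metastases had -0.82 and -2.31 under IgG and -1.10, -1.68 and -2.85 under anti-PD-1, and spleen -0.54, 1.33 and -0.47 and -0.89, -2.71 and 0.05. Of the 26 libraries, 22 were below every T0 library and 2 above, lung IgG replicate 2 and spleen IgG replicate 2, while 22% of all genes had at least 20 libraries below T0. The mean over the 10 groups was -1.30 (SE 0.602, rank 349, limma adjusted p = 0.212). Its 5 sgRNAs lay between -1.91 and -0.71. The signal of s_06960, the lowest of them, was 629.6, 665 and 737 in T0, 331, 84.0 and 93.2 in primary tumour IgG and 379.8, 98.6 and 245 in primary tumour anti-PD-1.

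Gpaa1, which helps form the bond between anchor and protein, came next. The T0 libraries held -0.05, 0.25 and -0.20. Primary tumour libraries held -1.85, -1.50 and -1.98 under IgG and -1.01, -0.95 and -0.75 under anti-PD-1. All 6 tumour values were below T0. Lung gave 0.20, -3.42 and -1.96 under IgG and -1.24, -3.92 and 0.13 under anti-PD-1, and liver -2.08 and -1.62 and -0.03. For peritoneal metastases the values were -1.69 and -0.93 under IgG and -1.25, -1.10 and -0.25 under anti-PD-1, and for spleen -0.76, -0.40 and 0.05 and -0.43, -0.79 and -0.73. In all, 22 of 26 libraries were below every T0 library and 0 above. Over the 10 groups the change was -1.12 (SE 0.540, rank 364, limma adjusted p = 0.248), which did not pass the threshold. All 5 sgRNAs were below 0, from -1.53 to -0.53. For s_01606, the lowest of them, the signal was 196, 258 and 115 in T0. In primary tumour it was 28.5, 41.8 and 63.1 under IgG and 34.7, 39.6 and 50.6 under anti-PD-1. These signals are not scaled to the nontargeting sgRNAs, and the share of all sgRNAs that separate in this way was not counted.

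Pigu, another subunit, was the one member called lower in a single group. Around the T0 mean the 3 T0 values were -0.13, 0.07 and 0.06. Under IgG the primary tumour gave -1.96, 0.07 and -0.97, and under anti-PD-1 -1.35, -1.83 and -0.86. Only replicate 2 under IgG was not below T0 there. The lung values were -2.41, -2.08 and -1.57 with IgG and -1.93, -2.30 and -0.38 with anti-PD-1, and those of liver -0.69 and -0.79 and -0.67. In metastases of the peritoneum they were 0.40 and -1.88 (IgG) and -0.29, -1.47 and -0.69 (anti-PD-1), and in spleen -0.86, -0.24 and -1.17 and -0.37, -1.65 and 0.0. Over all libraries 23 of 26 were below every T0 library. In lung IgG all 3 values were below T0 and the change of -2.02 (SE 0.622) passed the threshold (limma adjusted p = 0.0177), as 16.2% of all genes did, but not without T0 replicate 2, T0 replicate 3 or lung IgG replicate 1. This gave a mean of -1.02 over the 10 groups (SE 0.467, rank 381, limma adjusted p = 0.198). The 5 sgRNAs lay between -1.77 and -0.60.

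Pigk is the catalytic subunit, a cysteine protease. At T0 the libraries gave -0.28, -0.03 and 0.31. Values in primary tumour were -1.51, -0.56 and -0.93 (IgG) and -1.15, -1.21 and -1.42 (anti-PD-1). All 6 were below T0. Lung libraries held -1.97, -0.11 and -1.93 (IgG) and 1.01, -3.75 and -0.59 (anti-PD-1), and liver libraries 0.24 and -2.92 (IgG) and -0.93 (anti-PD-1). From peritoneal metastases came -0.41 and -1.78 under IgG and -0.05, 0.21 and -0.09 under anti-PD-1, and from spleen -1.92, 0.92 and -0.38 and -0.68, -1.04 and -0.13. Below every T0 library were 18 of 26 libraries, and 2 were above. Averaged over the 10 groups it was -0.91 (SE 0.621, rank 399, limma adjusted p = 0.663). Of its sgRNAs 4 lay below 0, down to -2.18, and s_09738 was at 0.33.

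Pigs, the last of the 5 subunits, was nearest to T0. In T0 its 3 values were 0.17, 0.11 and -0.28 around their mean. In primary tumour they were -0.61, -0.43 and -1.12 under IgG and -0.65, -1.56 and -1.19 under anti-PD-1. All 6 were below T0. In lung they were -1.90, 0.86 and -0.82 under IgG and 0.04, -4.72 and -0.98 under anti-PD-1, and in liver -0.29 and -0.33 under IgG and 0.03 in the single anti-PD-1 library. Peritoneal metastases had 0.23 and -0.77 under IgG and -0.36, -1.74 and -0.36 under anti-PD-1, and spleen -0.78, 0.55 and 0.73 and -0.65, -1.21 and -0.37. Here 20 of 26 libraries were below every T0 library and 4 above, and the value of -4.72 in lung anti-PD-1 replicate 2 was the lowest of any subunit. The mean over the 10 groups was -0.63 (SE 0.579, rank 479, limma adjusted p = 0.922). Of its sgRNAs 4 lay below 0, down to -1.48, and s_09584 was at 0.47.

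The first step, transfer of N-acetylglucosamine to phosphatidylinositol, is carried out by a complex of which 5 subunits were in the library. All 5 lay above T0, though not with values as deposited, at ranks 1999 to 2067 of 2078. Pigq was at 0.52 (SE 0.523), Pigh at 0.67 (SE 0.397) and Pigc at 0.86 (SE 0.387), none of them called. Pigc was above every T0 library in 25 of 26 libraries, and 2.79% of all genes reached 20 or more. Its remaining value, in spleen IgG replicate 3, was 0.12.

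Piga is the catalytic subunit of that complex and lies on the X chromosome. The T0 libraries held 0.26, 0.04 and -0.30. Primary tumour libraries held 0.88, 0.47 and 0.58 under IgG and 1.15, 0.07 and 0.53 under anti-PD-1. Anti-PD-1 replicate 2 was within the T0 range and the other 5 were above it. Lung gave 2.47, 1.32 and 1.39 under IgG and 1.54, -0.31 and 0.68 under anti-PD-1, and liver 0.54 and 0.67 and 0.93. For peritoneal metastases the values were 0.98 and 0.94 under IgG and 0.82, 1.22 and 0.03 under anti-PD-1, and for spleen 0.59, 1.07 and 0.73 and 0.80, 0.63 and 1.91. In all 23 of 26 libraries were above every T0 library, and 1, lung anti-PD-1 replicate 2, was below. Lung IgG gave 1.73 (SE 0.535) and was called higher (limma adjusted p = 0.0186). Over the 10 groups the change was 0.87 (SE 0.402, rank 2067, limma adjusted p = 0.208), which did not pass the threshold. All 5 sgRNAs were above 0, from 0.21 to 1.62. The signal of s_02602 was 360.5, 291 and 152 in T0, 518, 336 and 214 in primary tumour IgG and 284, 162 and 343 in primary tumour anti-PD-1, and the signals of T0 and tumour overlapped.

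Pigp, a small membrane subunit of the same complex, was mostly within the T0 range in primary tumour. Around the T0 mean the 3 T0 values were 0.25, 0.09 and -0.34. Under IgG the primary tumour gave 0.15, 0.20 and 0.10, and under anti-PD-1 0.18, 0.88 and 0.21. Only anti-PD-1 replicate 2 was above the T0 range. The lung values were 2.32, 2.10 and 0.90 with IgG and -0.06, 2.30 and 1.62 with anti-PD-1, and those of liver 1.61 and 1.34 and 0.83. In metastases of the peritoneum they were 0.89 and 0.14 (IgG) and 0.64, 2.33 and 0.52 (anti-PD-1), and in spleen -0.36, 0.87 and 0.21 and 0.78, 0.20 and 1.20. Over all, 16 of 26 libraries were above every T0 library. Lung IgG gave 1.77 (SE 0.588) and was called higher (limma adjusted p = 0.0304), and the unadjusted p for a difference between the 5 organs was 0.0446 (adjusted p = 0.636). This gave a mean of 0.86 over the 10 groups (SE 0.442, rank 2066, limma adjusted p = 0.315). Its 5 sgRNAs lay between 0.27 and 1.37.

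Pigl, which deacetylates the first intermediate, was at 0.52 (SE 0.387, rank 2001), and Pigw, which acylates the inositol, was at 0.72 (SE 0.396, rank 2055). The 5 genes of the mannose steps were spread more widely. Pigm, the enzyme that adds the first mannose, was at 0.25 (SE 0.523), and Pigb and Pigz, which add the third and the fourth, were at 0.30 (SE 0.468) and 0.29 (SE 0.468). None of these was called.

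Pigv adds the second mannose and had the highest change of all members. At T0 the libraries gave 0.17, 0.29 and -0.46. Values in primary tumour were 0.89, 1.04 and 0.10 (IgG) and 0.68, 0.48 and 0.71 (anti-PD-1). Of the 6, only IgG replicate 3 was within the T0 range. Lung libraries held 4.05, 0.73 and 1.01 (IgG) and 2.01, 1.20 and 0.75 (anti-PD-1), and liver libraries 0.38 and 0.50 (IgG) and 1.61 (anti-PD-1). From peritoneal metastases came 0.25 and 0.13 under IgG and 1.02, 0.91 and 1.06 under anti-PD-1, and from spleen 1.52, 1.38 and 0.79 and 1.62, 0.30 and 2.0. All 26 libraries were above the T0 mean and 23 above every T0 library. Lung IgG gave 1.93 (SE 0.623, limma adjusted p = 0.0250), and this rests on replicate 1, without which it was 0.87 (limma adjusted p = 0.350). Averaged over the 10 groups it was 1.03 (SE 0.468, rank 2072, limma adjusted p = 0.194). The 5 sgRNAs lay between 0.32 and 1.56.

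Of the ethanolamine phosphate transferases, Pigf, the stabilising partner of Pigo and Pigg, was at 0.82 (SE 0.398, rank 2062), and Pigo, which modifies the third mannose, was at 0.74 (SE 0.453, rank 2058). Pigg, which modifies the second mannose, was at 0.21 (SE 0.486, rank 1709) and Pign at -0.17 (SE 0.561, rank 980). Pgap1, which removes the acyl chain from inositol once the anchor is attached, was at 0.51 (SE 0.382, rank 1995). None was called over the 10 groups, and Pign alone lay below T0, by less than its SE.

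The gap between the transamidase and the other members was then read within each library, where the scaling cancels. The mean of the 5 subunits minus the mean of the other 17 members, both relative to T0, was below 0 in 26 of 26 libraries outside the lymph nodes, with a mean of -1.53 (SD 0.70, range -4.03 to -0.41). The same difference was -0.19 to 0.12 in the 3 T0 libraries. It was -1.81 to -1.21 in the 6 primary tumour libraries, -4.03 to -1.17 in lung, -2.26 to -1.12 in liver, -1.86 to -0.81 in peritoneal metastases and -2.13 to -0.41 in spleen. The lowest value was that of lung anti-PD-1 replicate 2 and the highest that of spleen IgG replicate 2. With the nontargeting mean for scaling, the mean of the other 17 members was above T0 in 26 of 26 libraries (0.21 to 1.13), and that of the subunits below it in 25 of 26. Against the 5 subunits of the N-acetylglucosamine transferase alone, the transamidase was lower in all 26 as well (median -1.62). The groups were drawn by role with earlier results of these data known, so this is a description and no test was made.

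A gene value is the mean of its 5 sgRNAs, so agreement between a gene and its sgRNAs is partly built in. Over all targeting sgRNAs the median change was -0.15. The 110 member sgRNAs were also fitted singly. None of the 110 was called over the mean of 10 groups, at which 7.52% of all 10640 sgRNAs were called lower and 0.0752% higher, and at an unadjusted p under 0.05 by limma 1 was lower (11.9% of all sgRNAs) and 9 were higher (0.536%). Of the 25 transamidase sgRNAs 23 lay below 0, and 13 lay in the lower quartile of all targeting sgRNAs (under -0.95). Of the 25 sgRNAs against the N-acetylglucosamine transferase 23 lay above 0, and 17 lay in the upper quartile (over 0.34). All 5 sgRNAs were above 0 for Piga, Pigp, Pigh, Pigl and Pigv, which held for 3.56% of all genes, and all 5 were below 0 for Pigt, Gpaa1 and Pigu, which held for 19.3%. The 5 sgRNAs of a gene share their target and are not replicates.

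By organ, calls of single members were made in lung alone, and the test of a difference between organs called no member (9 of 2078 genes were, 0.433%), with 1 member at an unadjusted p under 0.05 by limma. In lung IgG, 5 of 22 members were called higher against 1.68% of all genes, namely Pigv, Pigp, Piga, Pigf at 1.59 (SE 0.530) and Pgap1 at 1.46 (SE 0.508). In lung anti-PD-1, Pigf at 1.58 (SE 0.530) and Pigh at 1.58 (SE 0.528) were called higher, against 0.962% of all genes. Lung held the 3 libraries with the most undetected targeting sgRNAs outside the lymph nodes, and had 38.4%, 23.6% and 7.6% of nontargeting sgRNAs undetected under IgG and 14%, 19.2% and 5.2% under anti-PD-1. With the nontargeting median for scaling, 0 members were called higher in lung. Gpaa1, Pigk and Pigu were then called lower under IgG, and Gpaa1, Pigs and Pigu under anti-PD-1. Without lung IgG replicate 1, or without T0 replicate 3, no member was called higher in lung IgG, without T0 replicate 1 or 2 only 1 was, and without any 1 of the T0 libraries none was called in lung anti-PD-1. No member was called lower in lung anti-PD-1, where 17.2% of all genes were. In the other 8 groups 0 of 176 member tests were called in either direction, against 13.5% of all tests lower (9.58% in liver anti-PD-1 to 15.3% in peritoneal metastases anti-PD-1) and 0.192% higher (at most 0.433%, in spleen anti-PD-1, and 0.0481% in peritoneal metastases IgG). At an unadjusted p under 0.05 by limma, 7 of the 176 were lower (16.7% of all tests) and 9 higher (0.62%).

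In the lymph nodes no member was called in any of the 4 groups, and neither was any other gene of the library (0%). At an unadjusted p under 0.05 by limma, 0 of 88 member tests were lower (6.36% of all tests) and 8 higher (2.27%). Between 24.5% and 88.2% of member sgRNAs were undetected there. The transamidase minus the other members was below 0 in 8 of 12 libraries, 5 of 6 in draining and 3 of 6 in nondraining nodes, and ranged from -2.27 to 2.71.

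Anti-PD-1 was compared with IgG within each organ and over the mean of 5 organs. Of the 22 members 1, Pigx, the subunit that stabilises the mannosyltransferase Pigm, was called lower under anti-PD-1, as 0.481% of all genes were, and none was called higher (0.866%). Its values in primary tumour were 0.01, 1.24 and 1.38 under IgG and 0.03, -0.83 and -1.36 under anti-PD-1. In lung they were -1.76, -0.53 and 1.43 and -0.70, -0.40 and -0.96, and in liver 0.31 and 1.63 against -1.26. Peritoneal metastases had 0.36 and 0.41 under IgG and -0.20, -4.27 and -1.31 under anti-PD-1, and spleen 0.41, 1.32 and 0.91 and 0.50, 0.62 and 0.15. The treatments did not overlap in liver and peritoneal metastases and did overlap in primary tumour, lung and spleen. Liver and peritoneal metastases each hold 2 IgG libraries, and liver holds 1 under anti-PD-1. Groups this small can separate without a treatment effect. The share of all genes that separate in this way was not counted. Over the 5 organs the Pigx difference was -1.40 (SE 0.373, limma adjusted p = 0.0495). This call was lost in 20 of 29 fits that left out 1 library and under 5 other settings. In single organs 0 of 110 member tests were called (0.472% of all tests lower, 0.241% higher). At an unadjusted p under 0.05 by limma, 5 were lower (4.21%) and 2 higher (3.61%). The library whose labels disagree, peritoneal metastases anti-PD-1 replicate 2, held the lowest value, and without it the Pigx difference was -1.16 (limma adjusted p = 0.0681). Against T0, Pigx was at -0.14 (SE 0.550, rank 1043), near the median gene, with T0 values of 0.17, -0.05 and -0.12.

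The 5 Pigx sgRNAs differed in size. For the mean of 5 organs they were at -3.29 (s_06293), -1.76 (s_06291), -1.07 (s_06295), -0.60 (s_06292) and -0.27 (s_06294), all lower under anti-PD-1 and none called (lowest limma adjusted p = 0.0636). The share of all genes whose 5 sgRNAs agree in this way was not counted. In single organs s_06292 (3.63) and s_06294 (1.48) were higher under anti-PD-1 in lung. In spleen s_06294 (0.73) and s_06295 (0.91) were higher, and all remaining single-organ differences were below 0. The signal of s_06293 was 160.1, 93.0 and 162 in T0, 328, 2057 and 422 in primary tumour IgG and 201, 35.4 and 9.92 in primary tumour anti-PD-1. In spleen it was 279, 1431 and 193 under IgG and 211, 355 and 45.7 under anti-PD-1. In peritoneal metastases anti-PD-1 replicate 2, 3 of the 5 sgRNAs were undetected. Pigm, the partner of Pigx, differed in the other sign, at 0.83 (SE 0.355, limma adjusted p = 0.242), which did not pass. The other 20 members lay between -0.57 for Pigb and 0.59 for Pign, with adjusted p of 0.314 and above.

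Few member sgRNAs were undetected. Over the 26 libraries outside the lymph nodes, the median share of undetected member sgRNAs was 0.455%, against 7.19% of all targeting and 3% of nontargeting sgRNAs, and it was below the share of all targeting sgRNAs in every one of the 26. In primary tumour it was 0% in all 6 libraries, against 2.83% to 4.30% of all targeting sgRNAs. The share was highest in lung, at 33.6% in IgG replicate 1 and 21.8% in anti-PD-1 replicate 2, where 52% of transamidase and 12.9% of the other member sgRNAs were undetected. Transamidase sgRNAs had the higher share of both in 10 of 26 libraries. In most of the others both shares were 0, and in the rest the other members had the higher share. The mean share over the 26 was 7.69% for transamidase sgRNAs and 3.48% for those of the other members. Under replicate number 3 only 64.5% of sgRNAs shared their lowest value across organs, so this rule can miss undetected sgRNAs there. With a signal under 2 counted as undetected instead, primary tumour anti-PD-1 replicate 3 had 0.909% of member sgRNAs undetected (6.10% of all targeting). Lung anti-PD-1 replicate 3 then rose from 0% to 6.36% and liver IgG replicate 3 from 0.909% to 5.45%. Lung IgG replicate 1 fell from 33.6% to 28.2%.

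Several genes that supply the building blocks of the anchor were called lower over the mean of 10 groups, while no member was. Of all genes, 16.1% were called lower there. Of 12 genes of dolichol phosphate mannose and mannose supply, 5 were called lower, led by Gmppb, which makes GDP-mannose, at -5.27 (SE 0.487), and by Dhdds (-4.83) and Nus1 (-4.24), which make the dolichol chain. Dpm1, Dpm2 and Dpm3, which together make the mannose donor of the anchor, were at 0.34, 0.68 and 0.72, none called, and were named after their values were seen. Of 6 genes of UDP-N-acetylglucosamine supply 4 were called lower, led by Gfpt1 at -5.20. Phosphatidylinositol and phosphatidylethanolamine supply had 5 of 9 lower, led by Cdipt, the phosphatidylinositol synthase, at -5.38. Most of these products also feed other pathways. In N-glycan precursor synthesis, which shares the mannose, dolichol and UDP-N-acetylglucosamine supply, 10 of 13 genes were called lower, led by Alg2 at -5.64. Of the enzymes that are themselves GPI-anchored, 0 of 14 were called (median -0.24), against 16.1% of all genes lower and 0.192% higher. At an unadjusted p under 0.05 by limma, 0 were lower (18.2% of all genes) and 0 higher (0.577%). Gpld1, a phospholipase that cuts the anchor, was at -0.10.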

How the data were processed

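Genomic sgRNA inserts of sorted T cells were sequenced in 3 runs and counted with MAGeCK by the authors. The deposited signal values are those counts normalised to the nontargeting sgRNAs and then batch corrected with ComBat by the authors, whose methods name organs as the batches. In the table the floor moves with the replicate number, since each of the 10640 sgRNAs had a different minimum under at least 1 of the 3 numbers, and within numbers 1, 2 and 3 it was shared by libraries of at least 2 organs for 94%, 93.9% and 64.5% of sgRNAs. What the correction did to differences between organs was not tested. The values are not whole numbers, so depth is unknown and no count test was used. sgRNA sequences, the aligner settings and the plasmid pool were not given in the sources used here. Values were transformed as log2(value + 1), centred on the nontargeting mean of each library and averaged over the 5 sgRNAs of a gene. Changes from T0 and treatment differences were tested with limma 3.58.1 in R 4.3.3, in 1 fit of 29 libraries for T0 and the groups outside the lymph nodes and in another of 15 for T0 and the lymph nodes, with Benjamini-Hochberg adjustment over all genes and a threshold of 0.05. All comparisons with T0 share the same 3 libraries, and their values are not independent. The mean of 10 groups weights groups equally. Every member was named; values in each library were given for the 5 members with the lowest and the 3 with the highest change in that mean, for Piga and for a member called between treatments, and at most 3 genes with the largest change for other lists. Alternatives were the centring, the pseudocount (10), the sgRNA median, other sets of libraries in the fit, a filter on low sgRNAs, a replicate block and each library left out. Other lists (supply of building blocks, N-glycan precursors, GPI-anchored enzymes, ribosomal proteins) were counted as described. Members, lists and role groups were chosen with earlier results of these data known. The labels call replicates biological but do not name the mice, so p-values measure the spread between these libraries. The linear model was tested on simulated data with independent noise and random loss of sgRNAs. These data held no batch structure, and changes as small as those of the members over the mean of 10 groups were not simulated.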

Additional observations from a re-analysis of the deposited data

Results flagged for a closer look

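Pigx was lower under anti-PD-1 than under IgG by limma over the mean of 5 organs, at -1.40 on the log2 scale, and was the only member whose treatment difference passed the threshold there. The call did not hold under 5 of the 8 other settings tried. In lymph nodes, all 3 anti-PD-1 libraries and all 3 IgG libraries of a gene lay on opposite sides of the T0 mean for 1 of 22 members in draining nodes (2.5% of all genes) and 2 of 22 in nondraining nodes (3.85%). The anti-PD-1 minus IgG difference was 4.10 for Pigc in draining lymph nodes, 1.70 for Pigf in nondraining lymph nodes and 2.92 for Pigq in nondraining lymph nodes. These 3 differences were not tested, and 24.5% to 88.2% of member sgRNAs were undetected in the lymph node libraries.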

How the results depend on the processing

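No depth is known for these values, and 3 or fewer libraries per group limit every comparison. Calls of members higher in single groups outside the lymph nodes (7 in the report) became 0 with the nontargeting median for centring, 0 as deposited, 4 with log2(value + 10), 0 with all libraries in one fit, 26 with only T0 and the group compared, and 3 without the lowest 10% of sgRNAs in T0. Calls lower (1 in the report) became 6, 23, 6, 0 and 17 with the nontargeting median, as deposited, log2(value + 10), all libraries in one fit and only T0 and the group, and 0 with the median of the sgRNAs. Leaving out 1 library gave 0 to 8 higher and 0 to 3 lower. In lymph nodes 2 were higher with all libraries in one fit, 1 with only T0 and the group, and 72 lower as deposited. Over the mean of 10 groups, 1 was higher with the median of the sgRNAs (Pigf), 4 lower as deposited (Gpaa1, Pigk, Pigt, Pigu) and 1 lower with log2(value + 10) (Gpaa1). Treatment calls fell from 1 to 0 with the nontargeting median, as deposited, the median of the sgRNAs, all libraries in one fit and the sgRNA filter, and were 0 to 1 with 1 library left out. As deposited, 2 members differed between organs and 2 sgRNAs were lower, and leaving out 1 library gave 0 to 1 sgRNAs higher. Values as deposited keep a fall that the nontargeting sgRNAs share. Mean log2 signal of the nontargeting sgRNAs was 7.60 to 8.23 in T0 and 5.60 to 7.89 in the 26 libraries outside the lymph nodes. As deposited, the median of all genes was -1.14 over the mean of 10 groups, and these members were then below T0: Pgap1 -0.49, Piga -0.13, Pigb -0.70, Pigc -0.14, Pigf -0.18, Pigg -0.79, Pigh -0.33, Pigl -0.47, Pigm -0.75, Pigo -0.26, Pigp -0.14, Pigq -0.48, Pigw -0.28 and Pigz -0.71, and in lung IgG Pgap1 -0.48, Piga -0.21, Pigf -0.34, Pigp -0.16 and Pigv -0.0047. With the nontargeting median Pigb was -0.11, Pigg -0.20, Pigm -0.16 and Pigz -0.12. Pign was 0.31 with the median of the sgRNAs and 0.037 with the median of all genes for centring (chosen after seeing the data), where Pigx was 0.070, and Pign was -0.30 to 0.0093 with 1 library left out. The cause of these changes was not tested. The transamidase minus the other members had a mean of -1.53 in the main setting. The choice of centring cancels in this difference and could not change it. The mean was -1.31 with log2(value + 10) and -1.71 with the median of the sgRNAs. Without the lowest 10% of sgRNAs in T0 it was -1.51. In each of these settings the difference was below 0 in all 26 libraries. With 1 library left out the mean was -1.63 to -1.43. Replicate numbers were not taken as pairs in the main fit. Of the same-number pairs 27 of 84 correlated over 0.1, a larger share than the 15 of 168 pairs of different numbers (medians of -0.029 and 0.0059). Of 24 libraries, 13 correlated best with their own number, and the count to be met without pairing was not computed. With the replicate number as a block, 7 calls in single groups were higher and 1 lower, 0 over the mean of 10 groups, and Pigx was at -1.44 (limma adjusted p = 0.0389).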
